A study of Mus musculus with 14 samples.

Results

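De novo lipogenesis turns citrate exported from the mitochondria into palmitate, and 9 genes of that route were followed across diets and preparations: Acly, Acss2, Acaca, Acacb, Fasn, Elovl6, Me1, Thrsp and Mlxipl. They were taken by gene symbol from the annotation of the array, and each of the 9 symbols matched 1 of the 22206 probe sets tested. All samples came from adult male wild-type (WT) C57Bl6 mice, fed for 2 weeks either the control diet labelled CSAA or a diet labelled CDAA-HSHC in the series title, here CDAA. CDAA is the usual name of a choline-deficient, amino acid-defined diet, and the labels state that cholesterol, glucose and fructose were added to it. Primary hepatocytes (PH) were isolated by collagenase perfusion, and each diet had 3 such arrays. Total liver (TL) was the caudal lobe alone, taken after saline was perfused through the heart, with 4 arrays on each diet. The series describes these as independent preparations and does not say whether animals were pooled. The p-values therefore measure the spread between these preparations, which in the main fit was shared by lobes and hepatocytes. RNA of the hepatocytes and of the lobes was extracted with different kits.

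ATP citrate lyase (Acly) and the cytosolic acetyl-CoA synthetase (Acss2) supply acetyl-CoA, the acetyl-CoA carboxylases (Acaca, Acacb) make malonyl-CoA from it, and fatty acid synthase (Fasn) builds palmitate, which Elovl6 elongates. Malic enzyme (Me1) supplies NADPH for the synthase. In liver the route is known to be switched on after carbohydrate feeding by ChREBP, the sugar-responsive transcription factor encoded by Mlxipl, and by the insulin-responsive SREBP-1c, encoded by Srebf1, while Thrsp (Spot 14) is a lipogenic protein induced by thyroid hormone and carbohydrate.

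Expression was measured on Clariom S arrays as log2 intensity, so a difference of 1 is a doubling. Array medians over all probe sets were 4.56 to 4.71 for hepatocytes but 6.07 to 6.24 for lobes, so levels were not compared between the tissues and each diet difference was taken within a tissue. As a mark of background, the 95th percentile of 5222 negative control probe sets was 6.84 to 8.01 per hepatocyte array and 9.96 to 10.23 per total liver array. All 15 hepatocyte markers lay above that percentile in both hepatocyte groups, as they did in both total liver groups. That does not tell a hepatocyte preparation from whole liver. In hepatocytes Alb read 19.79 to 19.86 under CSAA feeding and 19.66 to 19.91 under CDAA feeding. Alb does not stand for the 15 markers, of which 13 had a lower mean on CDAA there. Their differences ranged from -2.92 to 0.37, with a median of -0.83. The hepatocyte preparations differed by diet in RNA of other cells. On CSAA all 11 macrophage markers lay under the control percentile on every hepatocyte array and their mean was 4.83 to 5.14, against 11.11 to 12.76 on CDAA, where 11 of 11 rose. Endothelial markers averaged 5.40 to 6.06 on CSAA, rising to 8.50 to 9.81 on CDAA, with 9 of 10 up, and stellate cell markers 5.21 to 5.79 and 9.34 to 10.50, with 10 of 10 up. The mean of the 15 hepatocyte markers was 17.78 to 17.91 with CSAA and 16.74 to 17.44 with CDAA, and 8 of the 15 fell. In total liver the macrophage mean went from 8.13 to 8.82 up to 11.19 to 11.86, with 8 of 11 up. The hepatocyte marker mean there went from 17.34 to 17.44 down to 17.04 to 17.14, with 1 of 15 up and 1 down. These counts use an adjusted p under 0.05, past which 6.73% of all probe sets rose and 3.54% fell in total liver. In hepatocytes 11% of all rose and 7.74% fell. The part these markers have in the lipogenic differences was not tested, and fewer hepatocytes in a sample cannot be told apart from less RNA of a gene per hepatocyte.

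**Figure D1:**
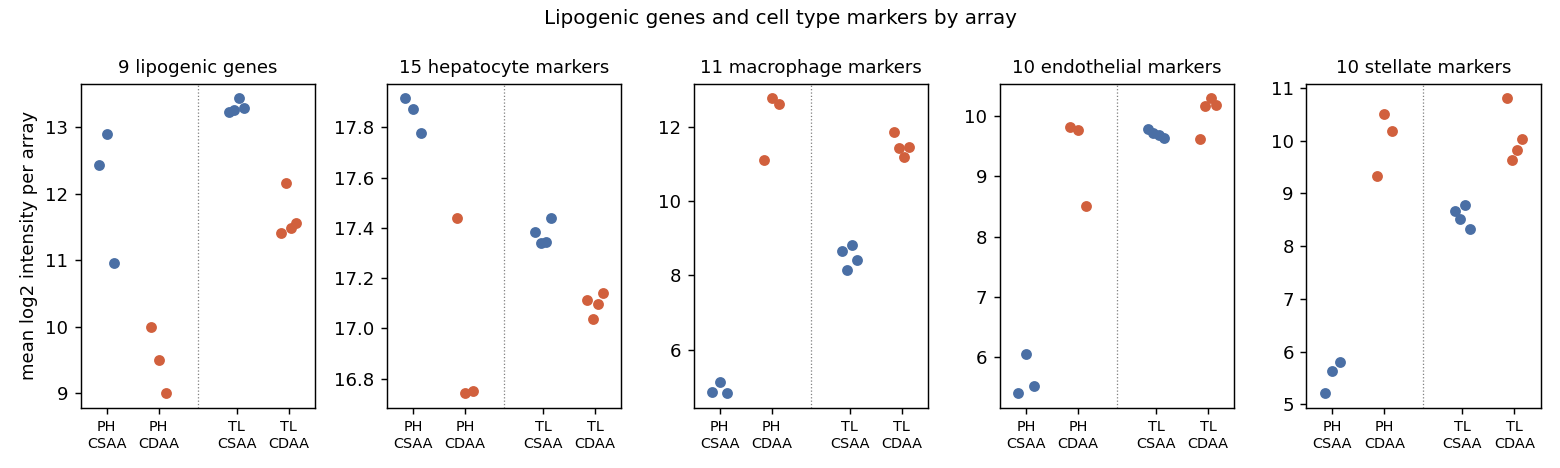
Mean log2 intensity per array of the 9 lipogenic genes and of 4 cell type marker lists, by preparation (PH hepatocytes, TL total liver) and diet. Each point is 1 array, axes do not start at 0, and levels are not comparable across the dotted line; the lipogenic mean was 10.97 to 12.91 with CSAA and 9.004 to 9.996 with CDAA in hepatocytes, and 13.24 to 13.44 against 11.42 to 12.16 in total liver.

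The start regions of the genes the results turn on are given first, since ChREBP and SREBP act through short DNA elements, some of them near gene starts. RefSeq (assembly GRCm38.p6) gave 11 windows of the 250 bases before a start for the 9 genes, 1 each except for Me1 and Mlxipl with 2. Windows with a motif are printed for Acss2 and Mlxipl, which fell in both preparations, and for Fasn, the synthase itself, 5′ to 3′ along the gene with motifs in capitals.
Acss2, chr2:155517793-155518042, plus strand: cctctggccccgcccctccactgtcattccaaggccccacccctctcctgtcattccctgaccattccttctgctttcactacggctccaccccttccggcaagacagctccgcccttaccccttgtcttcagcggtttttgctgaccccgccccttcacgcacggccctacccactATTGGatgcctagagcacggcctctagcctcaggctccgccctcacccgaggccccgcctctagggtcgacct
Fasn, chr11:120824548-120824797, minus strand: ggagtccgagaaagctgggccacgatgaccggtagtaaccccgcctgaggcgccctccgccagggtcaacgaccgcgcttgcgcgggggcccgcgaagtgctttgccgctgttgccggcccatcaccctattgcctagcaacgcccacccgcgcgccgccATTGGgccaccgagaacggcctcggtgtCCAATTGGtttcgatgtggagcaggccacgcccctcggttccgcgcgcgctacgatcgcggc
Mlxipl, upstream start, chr5:135089640-135089889, plus strand: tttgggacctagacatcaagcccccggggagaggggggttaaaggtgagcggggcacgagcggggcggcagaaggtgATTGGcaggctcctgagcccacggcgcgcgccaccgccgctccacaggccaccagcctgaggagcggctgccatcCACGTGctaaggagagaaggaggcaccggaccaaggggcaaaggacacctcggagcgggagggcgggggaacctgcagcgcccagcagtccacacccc
Mlxipl, downstream start, chr5:135106641-135106890, plus strand: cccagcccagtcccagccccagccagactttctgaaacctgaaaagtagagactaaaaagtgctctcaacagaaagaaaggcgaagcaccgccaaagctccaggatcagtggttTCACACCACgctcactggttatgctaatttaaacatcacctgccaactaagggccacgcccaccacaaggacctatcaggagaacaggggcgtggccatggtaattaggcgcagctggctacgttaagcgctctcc
The Mlxipl starts lie 17.001 kb apart. An alternative upstream start of Mlxipl is known to yield ChREBPβ, a shorter and more active form, and nothing in the files says which form the probe set reads. An E-box, CACGTG, stood in 1 of the 11 windows, that of the upstream Mlxipl start, at 98 to 93 bases before it. Of all 32851 RefSeq windows of this length, 6.02% held one. The carbohydrate response element, a pair of E-box-like repeats bound by ChREBP and its partner Mlx, matched none of the 11 windows and 0.0974% of all. The sterol regulatory element TCACNCCAC matched 1 window, as TCACACCAC at 136 to 128 bases before the downstream Mlxipl start, against 1.05% of all windows. A CCAAT box, searched like the others on both strands and therefore also read as ATTGG, stood in 6 of the 11 windows, belonging to Acacb, Acss2, Fasn, Me1, Mlxipl and Thrsp, against 33.8% of all windows. Fasn had 3 matches, with the forward and reverse match at 62 to 55 bases before the start overlapping each other. The windows of Acly, Acaca and Elovl6 held none of the 4 motifs. These matches describe letters in short windows and say nothing of occupancy. Elements outside the windows, or with letters other than those searched, would not be found.

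On CDAA, each of the 9 genes had a lower mean than on CSAA in both preparations. So did most probe sets, 13309 of 22206 in total liver and 13471 in hepatocytes. In total liver 4 of 9 fell past an adjusted p of 0.05, namely Acly, Acss2, Thrsp and Mlxipl, where 3.54% of all probe sets fell and 10.3% changed either way. In hepatocytes 7 of 9 fell, all but Elovl6 and Thrsp, where 7.74% of all probe sets fell and 18.7% changed either way. Acacb, counted among these 7 and in some of the counts below, lay under the control percentile on every array. Acly, Acss2 and Mlxipl fell in both, as did 2.03% of all probe sets. The median difference of the 9 was -1.17 in total liver and -2.75 in hepatocytes, beside -0.09 and -0.13 over all probe sets. All adjusted p-values come from limma's moderated test with 1 spread per probe set over the 4 groups and Benjamini-Hochberg adjustment over 22206 probe sets. The hepatocyte arrays scattered more, with a median residual SD over probe sets of 0.40 against 0.26 in total liver. With each preparation's own spread 8 of 9 genes fell in total liver, all but Acaca, and 3 of 9 fell in hepatocytes, Acly, Acss2 and Mlxipl. Counted without a model, the diets did not overlap for 6 of 9 genes in total liver (12% of all probe sets were lower without overlap) and for 3 of 9 in hepatocytes, again Acly, Acss2 and Mlxipl (14.2% of all). These 3 were lower without overlap in both preparations, like 4.7% of all probe sets.

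**Figure D2:**
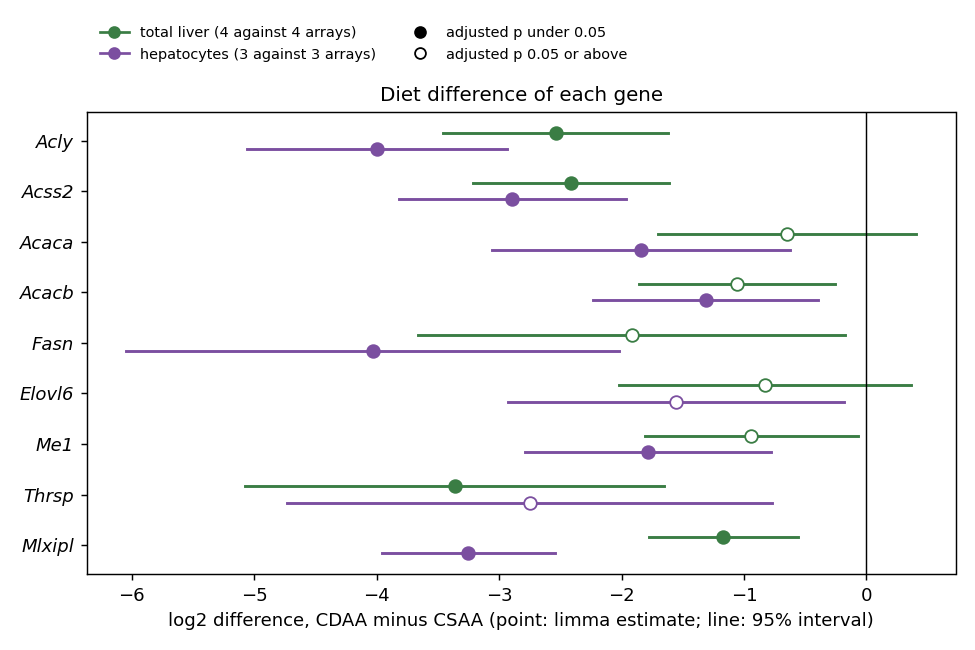
Diet difference of each gene (CDAA minus CSAA, log2) in total liver (green) and hepatocytes (purple), with 95% intervals of limma's shared-spread fit; filled points have an adjusted p under 0.05. All 18 estimates lie below 0, as do 13309 of all 22206 probe sets in total liver and 13471 in hepatocytes. Mlxipl is the gene whose intervals in the 2 preparations do not overlap.

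Acly, the enzyme that splits exported citrate into acetyl-CoA and oxaloacetate, was among the most strongly lowered genes of the arrays, 27th from the lowest of 22206 in hepatocytes and 71st in total liver. In total liver it read 14.44, 14.84, 15.08 and 14.78 on CSAA and 12.31, 12.99, 11.53 and 12.18 on CDAA. Every CDAA lobe lay more than 1 log2 unit under every CSAA lobe, and the level was 5.80-fold lower (log2 difference -2.54 ± 0.43, SE; adjusted p = 0.00109). Hepatocytes read 14.46, 14.36 and 12.06 on CSAA and 9.79, 9.41 and 9.70 on CDAA. The third CSAA preparation was low and still above all 3 CDAA preparations, whose SD was 0.20 against 1.36 on CSAA. The difference in hepatocytes was -3.99 ± 0.50, or 15.9-fold (adjusted p = 2.43e-05), and the adjusted p with the preparation's own spread was 0.00632.

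Acss2, which makes cytosolic acetyl-CoA from acetate, read 12.75, 13.38, 12.48 and 11.99 in CSAA lobes and 10.34, 10.33, 10.24 and 10.04 in CDAA lobes. The CDAA lobes were nearly alike, with an SD of 0.14, and 3 of 4 lay above the control percentile. The fall was 5.33-fold (-2.41 ± 0.38; adjusted p = 0.000562). In hepatocytes the values were 12.03, 12.53 and 10.77 on CSAA and 9.61, 8.84 and 8.20 on CDAA, again without overlap. The difference was -2.89 ± 0.43, or 7.43-fold (adjusted p = 0.000161, and 0.0142 with the preparation's own spread).

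The carboxylases moved less in total liver. Acaca, the cytosolic enzyme whose malonyl-CoA feeds the synthase, read 12.46, 12.15, 12.83 and 12.68 on CSAA and 11.87, 12.54, 11.20 and 11.92 on CDAA. The second CDAA lobe lay within the CSAA range. The difference of -0.65 ± 0.49 did not pass (adjusted p = 0.467), with a 95% interval of -1.70 to 0.40. In hepatocytes Acaca read 10.79, 10.76 and 8.90 on CSAA and 9.73, 7.24 and 7.94 on CDAA. The groups overlapped, since the third CSAA preparation lay under the first CDAA preparation, and the fall of -1.84 ± 0.57 (3.58-fold; adjusted p = 0.0341) had an adjusted p of 0.205 with the preparation's own spread. Without any 1 of the first or second CSAA or the second or the third CDAA preparation it was 0.0906 to 0.170.

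Acacb, the mitochondrial carboxylase whose malonyl-CoA restrains fatty acid oxidation, lay under the control percentile on all 14 arrays, so no fold is given. Its readings were 7.94, 7.59, 8.15 and 7.49 in CSAA lobes and 6.56, 7.19, 6.73 and 6.46 in CDAA lobes. The lobes did not overlap, and the difference was -1.06 ± 0.37 (adjusted p = 0.0912, and 0.00352 with total liver's own spread). In hepatocytes it read 6.04, 6.60 and 4.31 on CSAA against 4.26, 4.71 and 4.04 on CDAA. That difference of -1.31 ± 0.43 passed narrowly (adjusted p = 0.0457) and lost the call with the preparation's own spread (0.236). It was also lost with each array left out in turn (0.0515 to 0.212), except for the third CSAA hepatocyte preparation. The difference was -0.84 without the second CSAA preparation and -1.98 without the third.

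**Figure D3:**
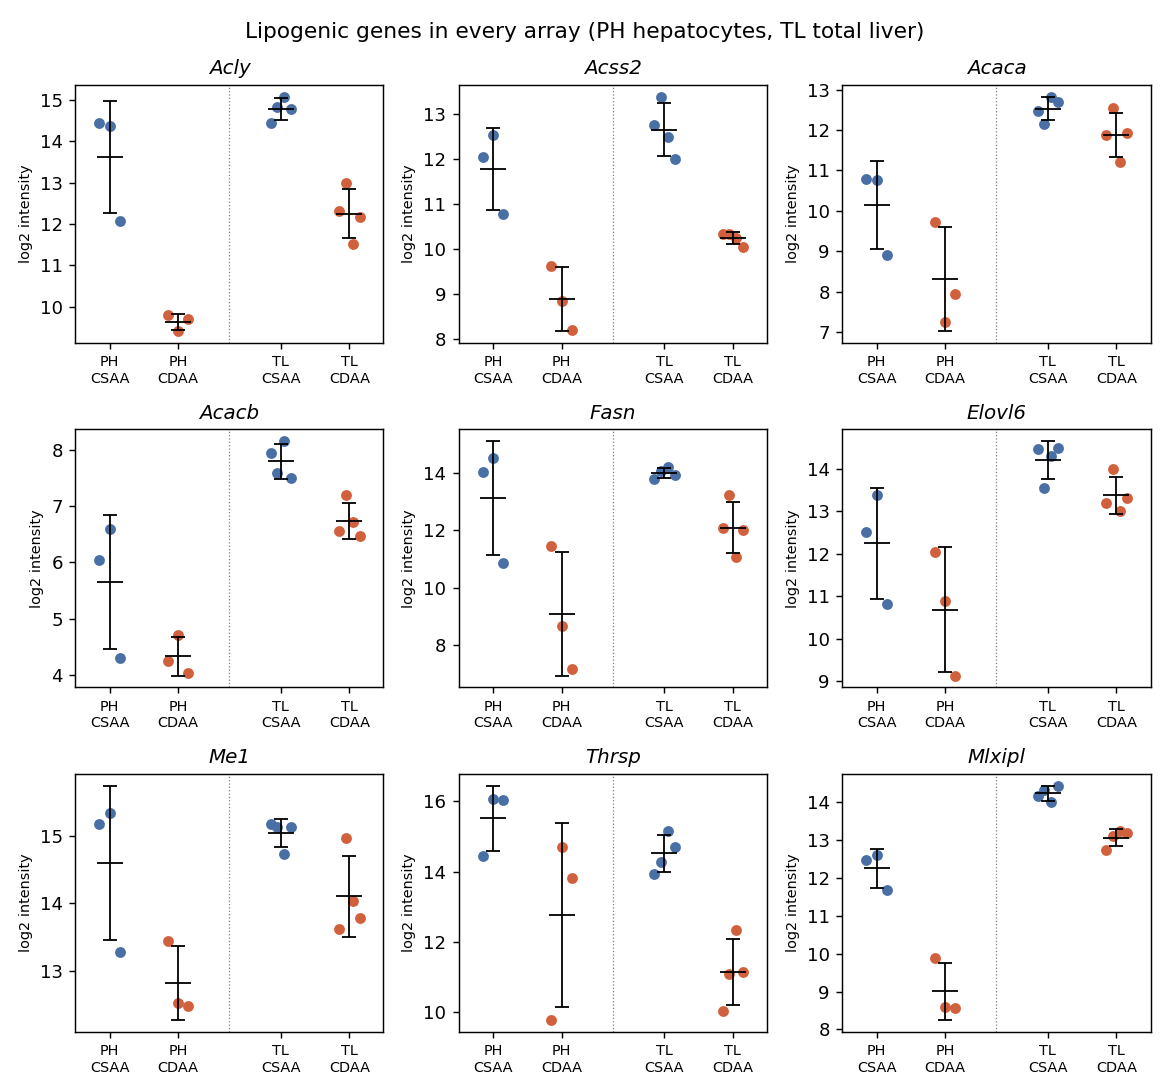
Log2 intensity of each of the 9 genes in every array, with group mean and SD (PH hepatocytes, n = 3 per diet; TL total liver, n = 4 per diet). Blue is CSAA and orange CDAA, axes differ between panels and do not start at 0, and levels are not comparable across the dotted line; in hepatocytes the third CSAA array is the lowest of its group in 8 of 9 panels.

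Fasn, which carries out all steps from acetyl-CoA and malonyl-CoA to palmitate, was steady in CSAA lobes at 13.80, 14.07, 14.21 and 13.94 and spread out in CDAA lobes at 12.07, 13.23, 11.06 and 12.00. The diets did not overlap, the SD was 0.18 on CSAA and 0.89 on CDAA, and the difference was -1.92 ± 0.82, or 3.78-fold. The shared spread gave an adjusted p of 0.166, and total liver's own spread 0.00270. In hepatocytes Fasn ranged widest of the enzymes, at 14.02, 14.50 and 10.85 on CSAA and 11.43, 8.67 and 7.18 on CDAA. The lowest CDAA reading was under the control percentile, and the third CSAA preparation lay under the first CDAA preparation. The fall of -4.03 ± 0.94 (16.4-fold; adjusted p = 0.00651), 26th from the lowest of 22206, had an adjusted p of 0.105 with the preparation's own spread.

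Elovl6, which lengthens palmitate to stearate, fell in neither preparation with the shared spread. Its total liver readings were 14.46, 13.54, 14.30 and 14.50 on CSAA and 13.19, 13.99, 13.01 and 13.31 on CDAA. The second lobe of each diet stood against its group, low on CSAA and high on CDAA, so the groups overlapped (-0.83 ± 0.56; adjusted p = 0.403, and 0.0419 with total liver's own spread). In hepatocytes it read 12.51, 13.39 and 10.83 on CSAA and 12.05, 10.88 and 9.13 on CDAA (-1.56 ± 0.64; adjusted p = 0.111). That value was 0.0186 without the third CSAA preparation and 0.0108 without the first CDAA preparation, with differences of -2.26 and -2.24. Without the second CSAA or the third CDAA preparation the difference shrank to -0.98 or -0.78 (adjusted p = 0.388 for each).

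Me1, the cytosolic malic enzyme, read 15.18, 15.13, 14.72 and 15.14 in CSAA lobes and 13.62, 14.97, 14.03 and 13.78 in CDAA lobes. Only the second CDAA lobe reached into the CSAA range. The difference was -0.94 ± 0.41, or 1.92-fold (adjusted p = 0.174, and 0.0273 with total liver's own spread). In hepatocytes it read 15.17, 15.34 and 13.27 on CSAA and 13.44, 12.52 and 12.47 on CDAA, where the third CSAA preparation again fell among the CDAA values. The fall of -1.79 ± 0.47 (3.45-fold; adjusted p = 0.0140) was 0.119 with the preparation's own spread, and 0.0599 to 0.0766 without any 1 of the first or second CSAA or the second CDAA preparation.

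Thrsp had the largest fall of the 9 in total liver, 29th from the lowest of 22206. Its lobes read 13.94, 14.28, 15.15 and 14.70 on CSAA and 10.04, 11.10, 12.34 and 11.14 on CDAA. The diets stood apart and the level was 10.3-fold lower (-3.36 ± 0.80; adjusted p = 0.0130), a call that was lost without the first CDAA lobe (adjusted p = 0.0541). The 9 adipocyte markers averaged 7.12 in that lobe and 6.10 to 6.42 in the other 7, and their part in the result was not tested. In hepatocytes it read 14.44, 16.05 and 16.05 on CSAA and 9.78, 14.70 and 13.81 on CDAA, so that the preparation with the highest Fasn of the CDAA group had by far the lowest Thrsp. The difference of -2.75 ± 0.93 had an adjusted p of 0.0509, of 0.238 with the preparation's own spread, and of 0.0126 without the second CDAA preparation. Without the first CDAA preparation the difference was -1.26 (adjusted p = 0.130), and with array weights -1.04 (adjusted p = 0.304).

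Mlxipl, which encodes ChREBP, had the largest difference of the 9 in hepatocytes relative to its standard error. The lobes read 14.18, 14.33, 14.01 and 14.44 on CSAA and 12.75, 13.11, 13.23 and 13.19 on CDAA. They did not overlap, and the level was 2.25-fold lower (-1.17 ± 0.29; adjusted p = 0.0154). This call was lost without the fourth CSAA lobe (0.0515) or the first CDAA lobe (0.0601), and held at 0.000407 with total liver's own spread. Hepatocytes read 12.47, 12.61 and 11.67 on CSAA and 9.88, 8.58 and 8.55 on CDAA. All CDAA preparations lay at least 1 log2 unit under all CSAA preparations, and the fall was 9.51-fold (-3.25 ± 0.33; adjusted p = 3.19e-06, and 0.00367 with the preparation's own spread).

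Mlxipl was also the one gene of the 9 whose diet difference differed between preparations. Its difference was 2.08 ± 0.44 log2 units smaller in size in total liver than in hepatocytes (95% interval 1.15 to 3.01; adjusted p = 0.0148), where 0.212% of all probe sets were called in this direction, 2.36% in the other and 2.57% in all. With tissue-wise weights that allow each preparation its own spread, the adjusted p was 0.0122. The call was lost without the first or second CSAA or the second CDAA hepatocyte preparation (0.0508 to 0.0582). It was also lost when every array was centred on its hepatocyte markers, which brought the difference to 1.16 (adjusted p = 0.0762). For Acly the tissue difference was 1.46 ± 0.66 (adjusted p = 0.396), and 2.24 (adjusted p = 0.00946) without the third CSAA hepatocyte preparation. The other 7 genes gave -0.61 to 2.11, with adjusted p of 0.564 to 0.920. Their intervals were wide, for Fasn -0.55 to 4.77, so equal differences in the 2 preparations are not shown.

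Centring each array on its 15 hepatocyte markers is another scaling, in which every gene is read relative to those markers. It does not measure the hepatocyte content of a sample. It moved the median of all probe sets by 1.12 in hepatocytes and 0.19 in total liver, and 98.3% of the hepatocyte calls were then higher ones. Acly (-2.88), Acss2 (-1.78), Fasn (-2.92) and Mlxipl (-2.13) were lower in hepatocytes on this scale too, with adjusted p of 2.32e-05 to 0.00417. Acaca (-0.72), Acacb (-0.20) and Me1 (-0.67) did not pass on it. In total liver Acly, Acss2, Thrsp and Mlxipl passed as before. Centring on the 3 less bright hepatocyte markers, C8a, Asgr1 and Itih3, an alternative added after the data were seen, gave the same 4 genes in hepatocytes, turned Acacb (0.35) and Elovl6 (0.10) upward there without a call, and ended the Mlxipl call in total liver (-0.71; adjusted p = 0.146).

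In hepatocytes most of the genes deviated from their group means together, and Thrsp apart from them, while in total liver they did so less. Among hepatocytes the third CSAA preparation lay under its group mean for 8 of 9 genes, by a median of 1.32 log2 units below it, with Thrsp the exception, and the second CSAA preparation lay above it for all 9. Among the CDAA hepatocytes the first preparation lay above the mean for 7 of 9, the exceptions being Acacb and Thrsp. That preparation also had the highest mean of every related list described below, such as 13.28 against 12.08 and 11.24 for sugar-response genes. Its hepatocyte marker mean was the highest, 17.44 against 16.74 and 16.75, and its macrophage marker mean the lowest, 11.11 against 12.76 and 12.61. In total liver the second CDAA lobe lay above for 8 of 9, by a median of 0.61. Over deviations from group means on all 14 arrays, 36 gene pairs correlated at a median r of 0.68. The 28 pairs without Thrsp had a median of 0.75 and the 8 with it -0.46. Fasn and Elovl6 were the closest pair (r = 0.92), and Acaca and Thrsp the farthest apart (r = -0.72). Hepatocytes carried most of this, with a median r of 0.78 on 6 arrays against 0.17 on 8 total liver arrays, where Acly and Fasn (0.97) were closest. In total liver Mlxipl was negative with 6 of the 8 other genes (r = -0.34 with Acacb to -0.04 with Elovl6), and Acss2 and Elovl6 were the farthest apart (-0.56). Genes on 1 array share its RNA and normalization, and these coefficients are given as a description. Such correlations were not computed for other genes, so the shared deviations are not shown to be particular to the 9.

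**Figure D4:**
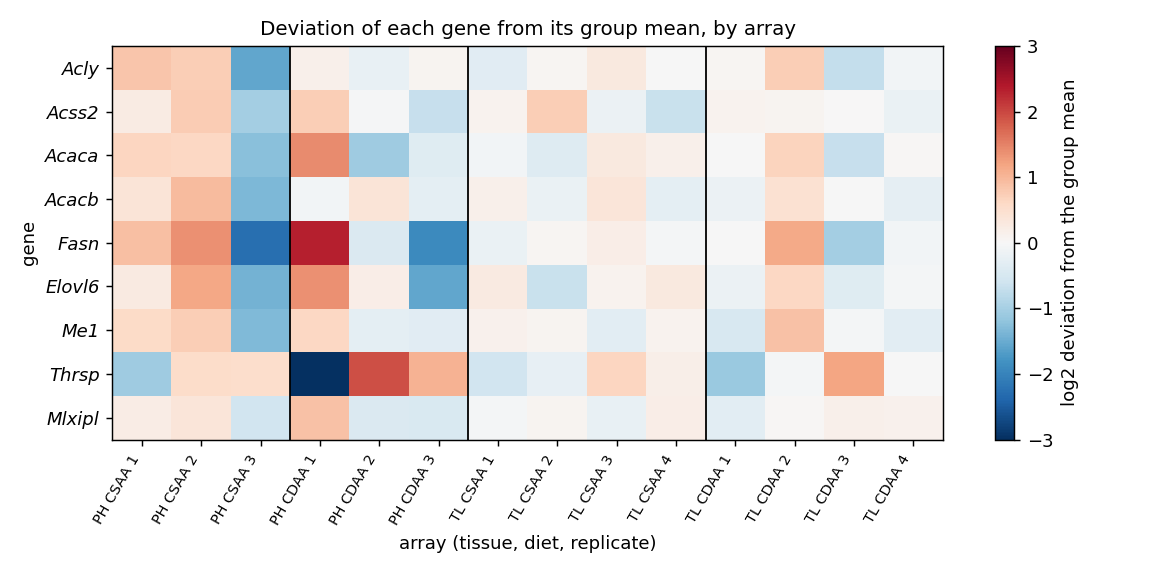
Log2 deviation of each gene from the mean of its own group, by array; columns are arrays ordered by preparation, diet and replicate, red is above and blue below the mean. The third CSAA hepatocyte array is blue for 8 of 9 genes, and the Thrsp row stands apart in the first CDAA hepatocyte array, at -2.99 where Fasn is at 2.34.

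Across all probe sets with a symbol, the closest patterns over the 14 arrays, each centred on its tissue mean, were as follows. Mlxipl was followed most closely by Hgfac (r = 0.99), Mttp (0.98) and Akap1 (0.98). Hgfac encodes the secreted activator of hepatocyte growth factor and Mttp the transfer protein that loads lipid onto apolipoprotein B. Hgfac fell by 1.17 in total liver and by 3.08 in hepatocytes on the log2 scale, against 1.17 and 3.25 for Mlxipl. Acly had sterol genes as its nearest, Fdps (0.97), Sc5d (0.96) and Insig1 (0.95), and Fasn had Srebf2 (0.97), Gpam (0.97) and Acsl5 (0.97). Diet and cell content vary along the same arrays, so these coefficients carry the diet difference itself.

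The genes around the route were taken from 6 lists with 83 symbols, of which 69 had a named probe set, and Srebf1 was among those not analysed here. Supply of citrate and NADPH did not move one way. In total liver 2 of 10 measured genes rose and 0 fell (list median 0.08), and in hepatocytes 3 rose and 3 fell (-0.34). Of all probe sets 6.73% rose and 3.54% fell in total liver, and 11% rose and 7.74% fell in hepatocytes, the shares against which the counts of this and the following lists are to be read. The mitochondrial citrate carrier Slc25a1 fell in hepatocytes (-2.03 ± 0.33; adjusted p = 0.000386) and was -0.73 ± 0.29 in total liver (adjusted p = 0.133, and 0.00384 with total liver's own spread). Pgd, which makes NADPH in the pentose phosphate route, went the other way, rising by 1.67 ± 0.44 in total liver (adjusted p = 0.0240) and 2.09 ± 0.51 in hepatocytes (adjusted p = 0.00839). Mpc1, a subunit of the mitochondrial pyruvate carrier, also rose in both, by 0.90 and 0.82 (adjusted p = 0.00291 and 0.00876). The hepatocyte rises of Pgd and Mpc1 had adjusted p of 0.0893 and 0.134 with the preparation's own spread. Mdh1, the cytosolic malate dehydrogenase, was lower by 0.83 in hepatocytes (adjusted p = 0.00616, and 0.0992 with the preparation's own spread). It differed by -0.36 in total liver (adjusted p = 0.199), and its hepatocyte value was 0.29 after centring on hepatocyte markers.

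Among 12 other regulators, 2 fell in total liver (median -0.29) and 4 in hepatocytes (-0.82), with 0 up. Insig1, the sterol-sensing protein that holds SREBP in the endoplasmic reticulum and is itself an SREBP target, fell by 2.98 ± 0.27 in total liver (adjusted p = 4.26e-06) and 3.67 ± 0.31 in hepatocytes (adjusted p = 4.86e-07). In the lobes it read 14.97 to 15.46 with CSAA and 11.86 to 12.67 with CDAA, and 14.60 to 15.64 against 11.20 to 12.07 in hepatocytes, so the diets lay far apart in both. Insig2 was 0.16 (adjusted p = 0.920) and -1.59 (adjusted p = 0.204), the latter -2.77 without the first and -0.89 without the third CDAA preparation. Mid1ip1, a Thrsp relative that promotes polymerization of acetyl-CoA carboxylase, fell in both preparations (adjusted p = 0.000563 and 0.00720). Since none of its CDAA lobes and only 1 of its CSAA lobes was above the control percentile, no fold is given for total liver. Scap, the escort of SREBP, was lower in hepatocytes by 3.18 (adjusted p = 0.00259, and 0.0846 with the preparation's own spread) and differed by -1.32 in total liver (adjusted p = 0.171, and 7.68e-05 with its own spread). Usf2, an E-box-binding factor of the Fasn promoter, was lower by 0.71 in hepatocytes (adjusted p = 0.0259, and 0.160 with the preparation's own spread). It differed by -0.26 in total liver (adjusted p = 0.408), and its hepatocyte value was 0.41 after centring on hepatocyte markers. Mlx, the partner with which ChREBP binds DNA, was -0.15 in total liver and 0.05 in hepatocytes (adjusted p = 0.796 and 0.932), with 95% intervals of -0.74 to 0.45 and -0.63 to 0.74, and its sign changed with the scaling in both.

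Of 12 measured sugar-response genes, 3 fell and 0 rose in each preparation, with list medians of -0.69 and -0.88. G6pc, the glucose-6-phosphatase catalytic subunit, fell in both (-2.31 and -4.09; adjusted p = 0.0126 and 0.000214). Txnip, a thioredoxin-binding protein and classical ChREBP target, fell in total liver (15.05 to 15.71 on CSAA, 13.16 to 14.06 on CDAA; -1.61, adjusted p = 0.0285) and was 0.04 in hepatocytes (adjusted p = 0.964), where the value was -0.80 without the second CSAA preparation. Pklr, the liver pyruvate kinase and another classical target, read 13.81 to 15.16 in CSAA lobes and 11.99 to 13.72 in CDAA lobes (-1.71; adjusted p = 0.215, and 0.00601 with total liver's own spread). In hepatocytes it was -2.65 (adjusted p = 0.0604), and -1.29 without the third CDAA preparation. Gckr, of hepatic sugar metabolism, and Gpd1, which makes glycerol 3-phosphate, were lower in hepatocytes (-1.19 and -2.18; adjusted p = 0.00202 and 0.0169) and differed by -0.49 and -0.86 in total liver (adjusted p = 0.156 and 0.339). With the preparation's own spread their hepatocyte adjusted p-values were 0.0710 and 0.184, and without the third CDAA preparation the Gpd1 difference was -1.23.

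Desaturation and glyceride synthesis, the steps after palmitate, showed 1 of 13 genes down in total liver (median -0.15) and 6 of 13 in hepatocytes (-1.34), with 0 up. Lpin1, a phosphatidate phosphatase and SREBP target, fell in both (-2.09 and -2.88; adjusted p = 0.0102 and 0.00152). Gpam, the mitochondrial glycerol-3-phosphate acyltransferase, fell in hepatocytes (-2.68; adjusted p = 0.00134, and 0.0612 with the preparation's own spread) and was -1.02 in total liver (adjusted p = 0.172). Acsl5, an acyl-CoA synthetase, and Dgat2, which completes triglyceride, were lower in hepatocytes by 1.34 and 1.42 (adjusted p = 0.00558 and 0.00825) and were -0.53 and 0.04 in total liver (adjusted p = 0.244 and 0.959). With the preparation's own spread the hepatocyte adjusted p-values were 0.0884 and 0.134, and without the third CDAA preparation the Dgat2 difference was -0.94. Scd1, the stearoyl-CoA desaturase and a target of both ChREBP and SREBP-1c, did not fall with the 9 genes. It read 17.37 to 18.05 in CSAA lobes and 18.18 to 18.54 in CDAA lobes, where every CDAA lobe was the higher (0.54 ± 0.45; adjusted p = 0.510, and 0.0472 with total liver's own spread). In hepatocytes it was -0.08 ± 0.52 (adjusted p = 0.938), and its sign there changed with the scaling and with the array left out.

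The 10 genes around malonyl-CoA and AMP-activated protein kinase, which inactivates the carboxylases, had medians near 0.02 in total liver, with 2 up and 0 down (6.73% of all probe sets rose there), and -0.61 in hepatocytes, with 2 down and 0 up (7.74% of all fell). The beta subunits Prkab1 and Prkab2 rose in total liver (adjusted p = 0.0209 and 0.00313), with Prkab2 under the control percentile on all arrays and Prkab1 under it in all 4 CSAA lobes. Prkaa2 and Prkag2, an alpha and a gamma subunit, were lower in hepatocytes by 1.34 and 0.71 (adjusted p = 0.0427 and 0.0376), and both lost the call with the preparation's own spread (0.243 and 0.185). Prkaa2 was -0.82 without the third CDAA preparation, and Prkag2 was 0.40 after centring on hepatocyte markers.

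The sterol synthesis targets of SREBP-2 had larger median differences than the 9 lipogenic genes. In total liver 11 of 12 measured members fell (median -3.34) and in hepatocytes 12 of 12 (-3.96). The list included Srebf2, which encodes SREBP-2 itself and was the 1 member that did not pass in total liver (-1.03, adjusted p = 0.0733). Nsdhl, of the demethylation steps of sterol synthesis, fell by 4.23 and 4.13 (adjusted p = 3.42e-08 and 3.90e-08) and Idi1, the isopentenyl diphosphate isomerase, by 5.01 and 5.30 (adjusted p = 7.35e-07 and 2.80e-07). Sqle and Fdps were under the control percentile on all CDAA arrays, so their falls are bounds. For Sqle, the squalene epoxidase, it was at least 2.89-fold in total liver and 7.68-fold in hepatocytes, and for Fdps, the farnesyl diphosphate synthase, at least 3.48-fold and 15.2-fold.

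**Figure D5:**
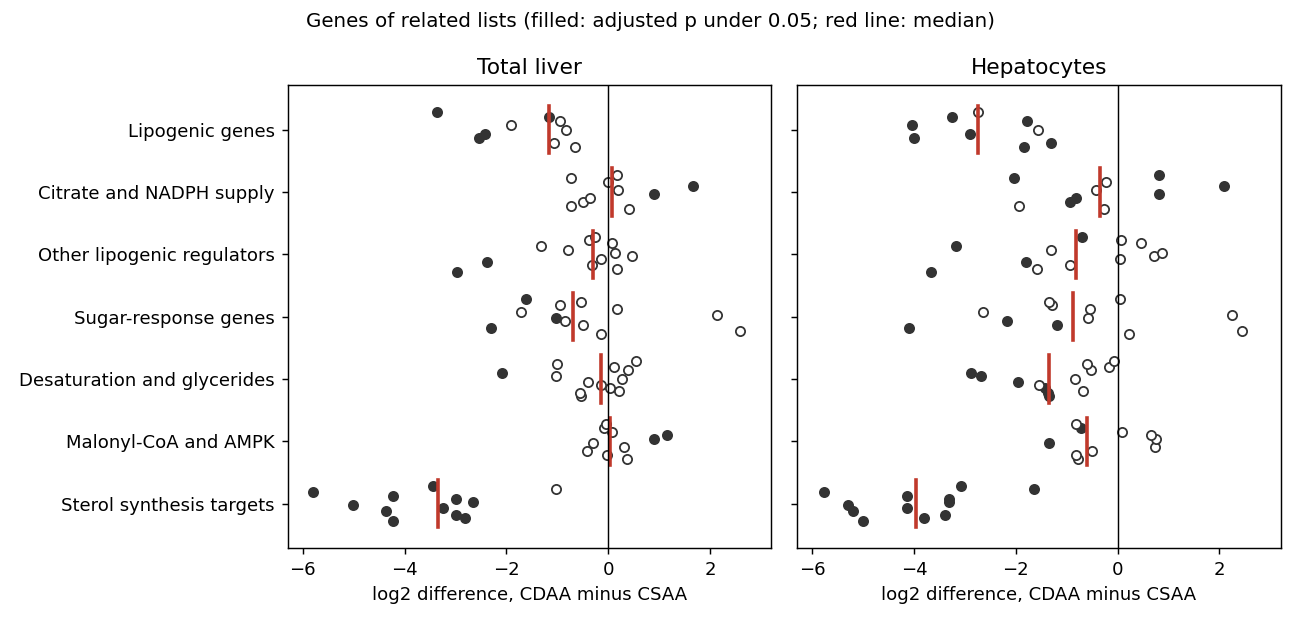
Log2 diet difference (CDAA minus CSAA) of the 9 lipogenic genes and of every measured gene of 6 related lists, in total liver (left) and hepatocytes (right). Each point is a gene, filled points have an adjusted p under 0.05 in limma's shared-spread fit and the red line is the list median; the sterol targets lie farthest to the left, at medians of -3.34 and -3.96.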

How the data were processed

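RNA of 14 mouse samples was hybridized to Clariom S arrays, 1 array per sample. The deposited values are log2 intensities per probe set, which the authors made with RMA, per the submitters' processing notes; the RMA version and the genome build are not given in the sources used here. RMA corrects background and forces the arrays of one run to a common distribution, and the 2 tissues look to have been run apart, so only differences within a tissue and their difference were used. Of 28846 probe sets, 6640 controls were left out and 22206 tested without a filter on dim ones; 19572 had 1 symbol, 0 had several and 2634 had none in the annotation given with the series.

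All 14 arrays entered 1 linear model with the 4 groups as its terms (limma 3.58.1 under R 4.3.3, lmFit and eBayes; 10 residual and 5.11 prior degrees of freedom), with two-sided tests, Benjamini-Hochberg adjustment per contrast and a threshold of 0.05. The code was tested on simulated data. A probe set was called not above background in a group if each of its arrays read under the 95th percentile of that array's 5222 negative controls. A fold against such a group is a bound: the brighter group's mean against the mean, per array, of the higher of that percentile and the reading. Named genes were the 9 genes, up to 4 genes with the smallest p per related list, a set of partner genes (Insig1, Insig2, Mlx, Slc25a1, Pklr, Txnip and Scd1) and the 3 closest patterns of Mlxipl, Acly and Fasn. Members, lists and most alternatives were chosen with earlier results of these data known. Markers of adipocytes, cholangiocytes and lymphocytes or neutrophils were measured too. In total liver 1 of 9, 0 of 6 and 4 of 10 rose (6.73% of all probe sets). In hepatocytes 1 of 9, 0 of 6 and 5 of 10 rose (11% of all), and 1 adipocyte marker fell (7.74% of all). Promoter windows came from RefSeq, assembly GRCm38.p6.

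The alternatives were each tissue's own spread, trend and robust moderation, no probe sets from the dimmest 30%, quantile normalization jointly or per tissue, centring on array medians or on hepatocyte markers, weights per array, a block for the replicate number, each array left out, and averaging a gene's probe sets. Centring on the hepatocyte markers under 16.5 in every group was added after the data were seen. Replicate numbers were not taken to pair the arrays in the main fit. Same-numbered arrays of both diets had deviations with r of 0.35, -0.21 and 0.26 for hepatocytes and -0.13 to 0.02 for lobes. These few coefficients do not settle whether the numbers mark pairs. The number of arrays limits the precision, and slide and scan dates were not analysed here.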

Additional observations from a re-analysis of the deposited data

Results flagged for a closer look

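Me1 in CSAA lobes read 15.18, 15.13 and 15.14 in 3 lobes and 14.72 in the other, replicate 3, whose gap to the nearest other value was 0.893 of the group's whole range. It was 1 of 18 sets of 4 lobes examined with Dixon's 95% critical value for 4 samples, which chance passes in about 1 in 20. The low reading lies between the highest CDAA lobe, 14.97, and the next, 14.03.

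The diet difference of Mlxipl differed between preparations by 2.08 ± 0.44 log2 units (limma interaction, adjusted p = 0.0148), at -1.17 in total liver and -3.25 in hepatocytes. This call was lost without the first or second CSAA or the second CDAA hepatocyte preparation. It was also lost with either marker centring (adjusted p = 0.0762 and 0.105). Mlxipl read lower in 4 of 4 CDAA lobes and 3 of 3 CDAA hepatocyte preparations than in every CSAA sample of the same tissue. Of all probe sets, 4.7% were lower without overlap in both preparations. Macrophage, endothelial and stellate marker means differed between the diets by more in hepatocytes than in total liver, and their part in the Mlxipl difference was not tested.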

How the results depend on the processing

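Of 675 values of the 9 genes under the alternatives, 595 kept direction and side of the threshold, 38 lost the call, 28 gained it and 14 changed sign, and the cause was not tested. Lowered genes in total liver, 4, became 8 with the own spread and 8 with array weights, and probe sets called, 2279, became 4613 and 4992. In hepatocytes the 7 became 3 with the own spread and 4 with either marker centring; the 4158 calls became 1883 with the own spread, 6806 with array weights, 13918 centred on hepatocyte markers and 19933 on the less bright ones. Between tissues the 1 gene became 4 with array weights and 0 with either centring, and the 570 calls became 2725, 2058 and 6159. Centring on array medians shifted all genes by -0.14 in total liver and -0.16 in hepatocytes and made 43.4% of total liver calls higher ones (1494 of 2279 in the main fit), and centring on markers made it 85.4% and 92.3%. With each array left out, lowered genes ranged 2 to 5 in total liver and 4 to 8 in hepatocytes and the tissue difference 0 to 2, with 1510 to 3115, 3039 to 5811 and 396 to 2265 calls. Total liver calls were 1510 without the first CDAA lobe, and calls between tissues 2265 without the first CDAA hepatocyte preparation. With replicate number as a block, a pairing these data do not settle, 6 and 9 genes were lower (2215 and 4285 calls). Acacb (adjusted p = 0.0410) and Fasn (0.0248) were added in total liver, and Elovl6 (0.0223) and Thrsp (0.00226) in hepatocytes. Mlxipl differed between tissues with this block (0.0110). Signs turned as follows. Centred on hepatocyte markers, tissue differences were -0.44 (Acss2), -0.67 (Acacb), -0.19 (Elovl6) and -0.077 (Me1), total liver values 0.11 (Prkag2) and 0.044 (Mlx), and hepatocyte values 0.29 (Mdh1), 0.41 (Usf2), 0.40 (Prkag2) and 1.04 (Scd1). Centred on the less bright markers, tissue differences were -0.73 (Acss2), -0.016 (Acaca), -0.95 (Acacb), -0.48 (Elovl6) and -0.36 (Me1), and total liver values 0.088 (Mdh1), 0.19 (Usf2), 0.37 (Prkag2), 0.16 (Prkaa2) and 0.30 (Mlx). Hepatocyte values were then 0.35 (Acacb), 0.10 (Elovl6), 0.83 (Mdh1), 0.96 (Usf2), 0.48 (Gckr), 0.32 (Acsl5), 0.24 (Dgat2), 0.95 (Prkag2), 0.32 (Prkaa2), 0.073 (Insig2) and 1.58 (Scd1). Joint quantile normalization gave -0.10 (Mlx) and 0.032 (Scd1), quantile within tissue -0.11 and 0.044, and array medians -0.12 (Txnip) and -0.11 (Mlx) in hepatocytes and -0.10 (Dgat2) in total liver. With arrays left out, hepatocyte values ranged -0.26 to 0.48 (Mlx), -0.90 to 0.37 (Scd1) and -0.80 to 0.58 (Txnip), total liver values -0.086 to 0.38 (Insig2), -0.0034 to 0.072 (Dgat2) and -0.18 to 0.033 (Prkag2), and tissue differences -0.22 to 0.92 (Acacb), -2.11 to 0.35 (Thrsp) and -0.049 to 1.44 (Elovl6). Readings near the negative controls, as for Acacb, are limited by signal over background.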
